A study of Mus musculus with 12 samples.

Results

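The 8 genes described here build the salt transport machinery of the thick ascending limb of the loop of Henle: Umod, Slc12a1, Kcnj1, Bsnd, Cldn10, Cldn16, Cldn19 and Casr. They were taken by symbol from the deposited table, 8 of its 55487 rows, and all 8 passed the filter on low counts that left 17890 genes for testing. The table comes from messenger RNA sequencing of kidney from male mice that model X-linked Alport syndrome, a disease of the type IV collagen network of the glomerular basement membrane, on the B6 background at 30 weeks of age. Both groups are of this model. Of the libraries, 6 are from mice on a control diet and 6 from mice fed fisetin, a plant flavonol, at 500 ppm. The labels name 2 batches, each with 3 libraries per diet. The labels give the gene Col4a5 and a genotype of HET although the mice are male, so no allele status is used, and no healthy kidney was analysed here. They do not say that each library is a separate animal, so p-values measure the spread between these libraries. Total counts were 16310214 to 24451821 per library, and the 8 genes together took 0.241% (control 1) to 0.435% (control 6) of them.

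The thick ascending limb reabsorbs salt without water, which dilutes the tubular fluid and builds the gradient that concentrates urine. Sodium, potassium and chloride enter the cell through the apical carrier NKCC2, encoded by Slc12a1 and blocked by loop diuretics. Potassium returns to the lumen through the channel ROMK, encoded by Kcnj1, and chloride leaves on the blood side through channels that need the subunit barttin, encoded by Bsnd. The resulting voltage drives cations between the cells, through sodium-selective pores of claudin-10b and through the claudin-16 and claudin-19 pair that serves calcium and magnesium. The calcium-sensing receptor, encoded by Casr, restrains this transport. Uromodulin, encoded by Umod, is the most abundant protein of normal urine and is secreted by the same cells. Loss of NKCC2, ROMK or barttin gives Bartter syndromes, and loss of claudin-16 or claudin-19 gives familial magnesium wasting with kidney calcification.

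RefSeq start sites were found for 7 of the 8 genes, in 9 promoter windows (GRCm38.p6); Bsnd had no match. Each window of 250 bases upstream of the start was searched on both strands for AAGGTCA, a half-site of the estrogen-related receptors, and for TATAAA. Of 32851 mouse promoter windows of that length, 4.08% held the first and 12.4% the second, and 0 of the 9 member windows held either. That says only that these letters are not in these windows. Shown are Umod, Slc12a1 and the upstream start of Cldn10, genes whose levels varied together, with Cldn16, whose level did not follow them. They are in lower case with no capitals, since neither word was found. Bases that lie in annotated exons were left out, and strands and positions are chr7:119479283-119479512 (minus) for Umod, chr14:118787621-118787870 (plus) for Cldn10, chr2:125152350-125152504 (plus) for Slc12a1 and chr16:26462885-26463134 (plus) for Cldn16.
Umod: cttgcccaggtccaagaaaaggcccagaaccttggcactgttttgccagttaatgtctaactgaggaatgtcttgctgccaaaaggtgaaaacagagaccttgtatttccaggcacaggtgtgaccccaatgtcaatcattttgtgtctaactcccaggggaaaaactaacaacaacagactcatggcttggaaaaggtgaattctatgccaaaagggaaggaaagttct
Cldn10: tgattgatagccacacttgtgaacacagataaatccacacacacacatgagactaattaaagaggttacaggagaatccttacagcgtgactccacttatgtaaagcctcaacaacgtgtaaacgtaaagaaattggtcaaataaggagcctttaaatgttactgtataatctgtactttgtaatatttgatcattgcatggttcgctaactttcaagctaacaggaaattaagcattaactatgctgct
Slc12a1: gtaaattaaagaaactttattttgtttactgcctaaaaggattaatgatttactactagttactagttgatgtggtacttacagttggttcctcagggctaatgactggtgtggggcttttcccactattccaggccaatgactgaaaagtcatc
Cldn16: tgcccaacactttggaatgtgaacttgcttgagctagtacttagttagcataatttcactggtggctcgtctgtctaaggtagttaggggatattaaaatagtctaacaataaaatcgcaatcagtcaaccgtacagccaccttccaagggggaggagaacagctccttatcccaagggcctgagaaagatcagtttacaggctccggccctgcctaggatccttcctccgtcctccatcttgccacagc
Cldn10 has a further start at position 118854950, and the 2 starts give isoforms of which claudin-10b is that of the thick limb and claudin-10a that of the proximal tubule. The gene count does not separate them.

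Compared per transcript length, the 8 genes spanned close to 2 orders of magnitude, and their order hardly varied between libraries. Umod had a median of 681 TPM over the 12 libraries (lowest 302 in control 1, highest 910), followed by Slc12a1 at 134 TPM (71.3 to 157). Within each library Umod stood at 4.07 to 6.47 times the TPM of Slc12a1. Next was Cldn10 with a median of 53.8 TPM (31.4 to 73.8), then Kcnj1 at 32.9 (18.1 to 39.6), Cldn19 at 19.1 (12.8 to 21.1) and Casr at 12.045 (7.26 to 14.7). These 6 genes kept the same order in 12 of 12 libraries, so each neighbouring pair was separated in every library. Bsnd (median 8.72 TPM, 5.29 to 11.8) and Cldn16 (7.12 TPM, 4.29 to 8.74) were the lowest and changed places: Bsnd was the higher in 8 of 12 libraries, and the ratio ran from 0.746 to 1.83. The claudin-19 message was thus above that of its partner claudin-16 in every library. TPM was used to set genes against each other and in alternatives to the main fits, not in the main test of diets. The reason is that the 7SL RNA genes Rn7s1 and Rn7s2 held 40.3% to 53.1% of all TPM. They held most in control 1 and next in fisetin 6 (49.2%).

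**Figure D1:**
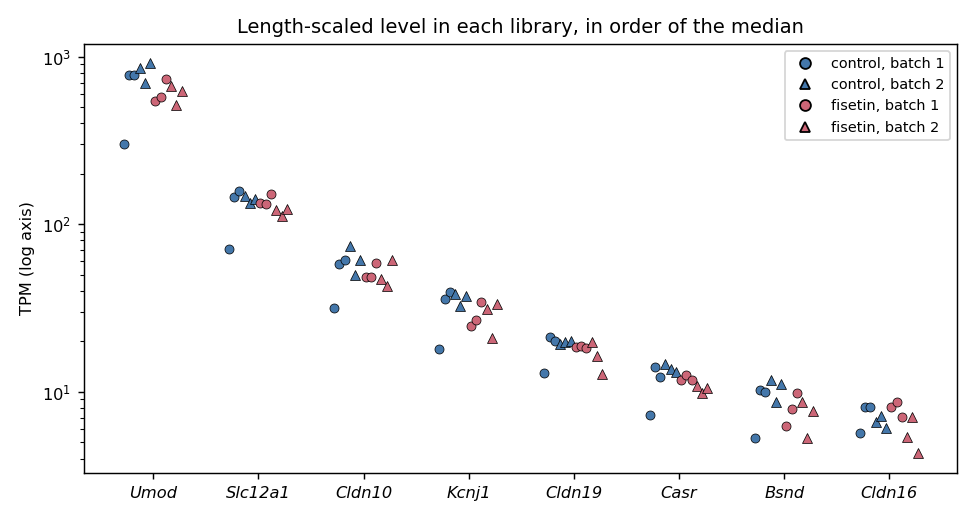
Level of each of the 8 genes in TPM (log axis), 1 point per library, coloured by diet and shaped by batch, with genes in order of their median. Umod lies highest in all 12 libraries and only Bsnd and Cldn16 change places.

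The comparison of diets asked whether fisetin moved these transport genes in the kidney of these mice. All 8 genes had lower fitted values in fisetin libraries, by 0.10 to 0.36 on the log2 scale, and none passed the test over all genes. The largest difference was that of Bsnd (log2 fold change -0.36 ± 0.18, SE) and the smallest that of Slc12a1 (-0.10 ± 0.14). The sign of Slc12a1 turned on the TPM scale (0.0015 for log2(TPM + 1)), where the median of all genes was 0.0546 against 0.0008 in the main fit. By edgeR's quasi-likelihood test with batch as a term and Benjamini-Hochberg adjustment, 0 of 8 passed an adjusted p of 0.05, where 0% of 17890 genes were called; 0 of 8 had an unadjusted p under 0.05, against 14.6% (2608) of all genes in either direction and 6.34% with a lower level. Unadjusted p under 0.1 with a lower level was found for 3 of 8 (Cldn19, Casr and Bsnd), against 11.5% of all genes. Fold changes were below 0 in 8 of 8, against 49.8% of all genes, and the median was -0.19 against 0.0008. Most members move together across libraries, as described further on, so 8 like signs are not 8 separate observations. DESeq2 called 0 of 8 (0.954% of the genes it gave an adjusted p) with 0 of 8 at an unadjusted p under 0.05 (15.8% of all genes). limma-voom with sample quality weights called 0 of 8 (13.9% of all genes, 7.13% with a lower level), with 5 of 8 at an unadjusted p under 0.05 (34.8%) and a smallest member adjusted p of 0.0578 for Bsnd. In no member were the 6 fisetin libraries wholly apart from the 6 control libraries, which held for 0.894% of all genes. In bulk kidney RNA, fewer cells of a segment and less RNA per cell cannot be told apart.

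**Figure D2:**
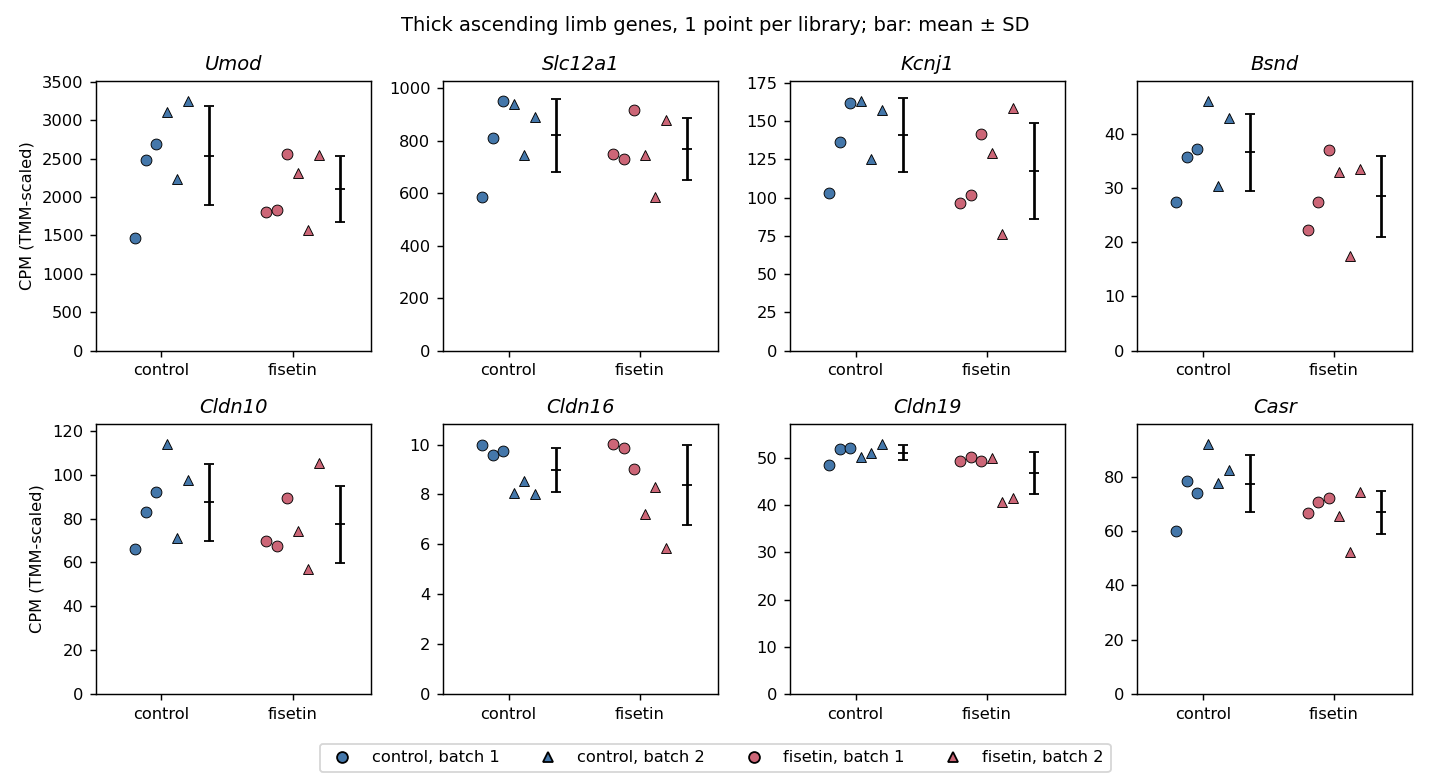
CPM of each gene in each library by diet, with the mean ± SD beside the points and batch by shape; every axis starts at 0. Diet groups overlap in all 8 panels, and Cldn19 shows the narrowest control group (48.5 to 52.9 CPM).

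Umod, the uromodulin gene (chromosome 7, 119462711 to 119479282, GRCm38), had 1471, 2584 and 3250 CPM as the lowest, median and highest control value and 1567, 2069 and 2562 CPM with fisetin. No fisetin library lay below the lowest control, control 1, and 3 controls lay above every fisetin library. The means were 2539 ± 646 CPM with the control diet and 2104 ± 424 with fisetin (SD, n = 6 per diet). The log2 fold change was -0.26 ± 0.18 (SE; edgeR adjusted p = 0.479). With Umod the 25th most abundant of the tested genes by CPM, counting error was negligible beside this spread: 26984 to 64693 counts per library.

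Slc12a1, the NKCC2 gene (chromosome 2, 125152505 to 125230002), had 586, 853 and 952 CPM in controls and 586, 747 and 917 CPM with fisetin as lowest, median and highest. The lowest library of each diet, control 1 and fisetin 5, had almost the same value. Means were 822 ± 139 and 768 ± 118 CPM (SD, n = 6 per diet), and the log2 fold change was -0.10 ± 0.14 (SE; adjusted p = 0.725 by edgeR).

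Kcnj1, the ROMK gene (chromosome 9, 32372493 to 32399197), had 103, 147 and 163 CPM in controls and 75.9, 115 and 159 CPM with fisetin. Fisetin 1, 2 and 5 lay below every control, while fisetin 6 was at the level of the highest controls. The log2 fold change was -0.26 ± 0.18 (adjusted p = 0.459 by edgeR), and the spread was 26.5% of the mean with fisetin against 17.1% with the control diet.

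Bsnd, the barttin gene (chromosome 4, 106483456 to 106492283), had 27.4, 36.4 and 46.0 CPM in controls and 17.5, 30.2 and 37.1 CPM with fisetin. Fisetin 1 and fisetin 5 were below all controls, and 3 controls were above all fisetin libraries. The mean with fisetin was 77.8% of the control mean (28.5 ± 7.47 against 36.6 ± 7.10 CPM, SD, n = 6 each; adjusted p = 0.375 by edgeR).

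Cldn10, the claudin-10 gene (chromosome 14, 118787908 to 118875489), had 65.9, 87.6 and 114 CPM in controls and 57.2, 72.0 and 106 CPM with fisetin, with a log2 fold change of -0.17 ± 0.16 (adjusted p = 0.592 by edgeR). The groups overlapped except for fisetin 5 at the bottom and control 4 at the top. Cldn16 (chromosome 16, 26463135 to 26482765) had 8.03, 9.05 and 9.97 CPM in controls and 5.83, 8.66 and 10.01 CPM with fisetin, with a log2 fold change of -0.11 ± 0.09 (adjusted p = 0.524 by edgeR). It had 107 to 213 counts per library, so counting alone gives a spread of about 7.64% of its mean, against an observed 9.71% in controls and 19.4% with fisetin. Its lowest value was in fisetin 6, the library with the highest fisetin values of Kcnj1, Cldn10 and Casr.

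Cldn19 (chromosome 4, 119255414 to 119262438) was the steadiest member, with 48.5, 51.5 and 52.9 CPM in controls, a spread of 3.06% of the mean that is no wider than the 3.21% that counting alone gives. With fisetin it had 40.7, 49.4 and 50.2 CPM. Fisetin 5 and fisetin 6 (41.6 CPM) stood below the other 4 fisetin libraries and all controls, and 5 of 6 controls lay above every fisetin library. The log2 fold change was -0.13 ± 0.06 (adjusted p = 0.344 by edgeR), and 6 of 6 fisetin libraries were below the control mean. Casr (chromosome 16, 36493696 to 36562141) had 59.9, 78.1 and 91.9 CPM in controls and 52.0, 68.5 and 74.2 CPM with fisetin, also with 6 of 6 below the control mean and 4 controls above all fisetin libraries. Its means were 77.4 ± 10.5 and 66.8 ± 7.96 CPM (SD, n = 6 per diet), and the log2 fold change was -0.21 ± 0.10 (SE; adjusted p = 0.362 by edgeR).

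**Figure D3:**
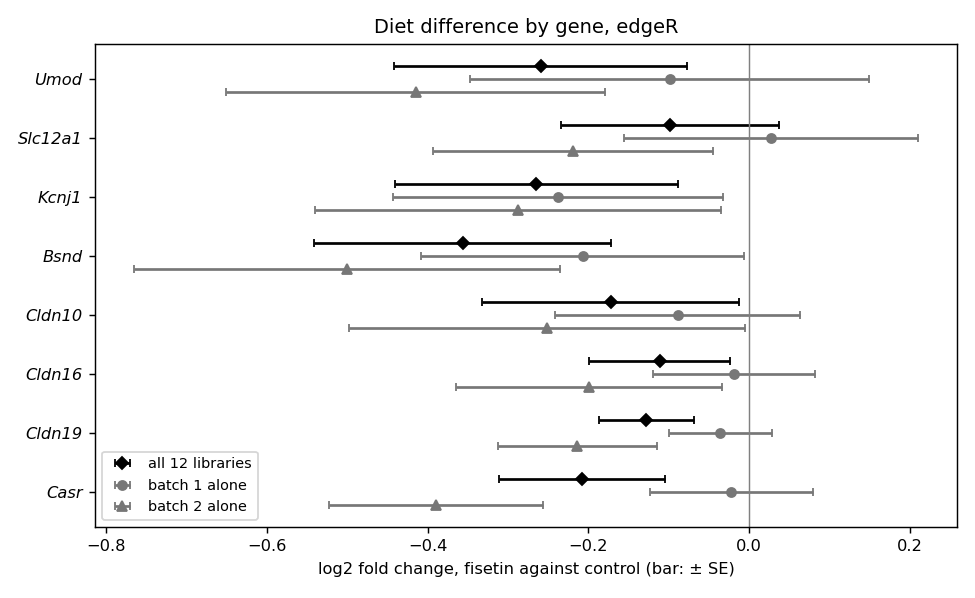
log2 fold change of each gene, fisetin against control, with its SE, from all 12 libraries and from each batch of 6 fitted alone. The value from batch 2 lies further below 0 than that from batch 1 for all 8 genes, and Slc12a1 is at 0.03 in batch 1.

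The difference was larger in batch 2. Casr had a log2 fold change of -0.02 in batch 1 alone and -0.39 in batch 2 alone, Umod -0.10 and -0.41, Bsnd -0.21 and -0.50, and Cldn19 -0.04 and -0.21. Kcnj1 differed least between the batches, at -0.24 and -0.29. The interaction of diet and batch had the same sign in 8 of 8 members, was largest for Casr (-0.37 ± 0.18, SE) and passed in 0 of 8 by edgeR (adjusted p = 1.0, with 0% of all genes called). At an unadjusted p under 0.05 it held 0 of 8, against 2.1% of all genes. Fisetin 5, in batch 2, was the lowest fisetin library for 7 of the 8 genes, Cldn16 being the exception. Without it the log2 fold change of Umod was -0.16, of Kcnj1 -0.15, of Bsnd -0.23, of Casr -0.13, of Cldn10 -0.08, of Cldn19 -0.09 and of Slc12a1 -0.02, whereas that of Cldn16 was -0.15. Without fisetin 6, the library with its lowest value, that of Cldn16 was -0.05. Without control 1, the lowest control for 7 of the 8, the log2 fold changes were -0.37 for Umod, -0.19 for Slc12a1, -0.33 for Kcnj1, -0.42 for Bsnd, -0.23 for Cldn10, -0.11 for Cldn16, -0.15 for Cldn19 and -0.27 for Casr. In that fit 4 of 8 (Umod, Bsnd, Cldn19 and Casr) had an unadjusted p under 0.05 by edgeR, against 19.1% of all genes, and 0 of 8 passed (adjusted p = 0.186 for Casr).

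Of the 8 members, batch separated only Cldn16. Its 6 batch 1 libraries had 9.02 to 10.01 CPM and its 6 batch 2 libraries 5.83 to 8.54 CPM, without overlap, which held for 1 of the 8 members and 0.117% of all genes. The log2 difference of batch 2 from batch 1 was -0.34 ± 0.09 (SE; unadjusted p = 0.00202, adjusted p = 0.892 by edgeR), and 0% of all genes passed (3.38% at an unadjusted p under 0.05). Umod stood at 0.21 ± 0.18 and Slc12a1 at 0.01 ± 0.14 in the same comparison.

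Across the 12 libraries, 6 of the 8 genes varied together, while the correlations of Cldn16 and Cldn19 did not pass the test. The log2 CPM of Slc12a1 was correlated with that of Umod (Pearson r = 0.919, Spearman rho = 0.895), Cldn10 (0.899 and 0.888), Kcnj1 (0.893 and 0.881), Casr (0.830 and 0.720) and Bsnd (0.825 and 0.881). Of 7 relations computed, those 5 had permutation p-values of 1e-05 to 0.0011 for r (adjusted p = 7e-05 to 0.0015) and 0.00025 to 0.011 for rho (adjusted p = 0.00068 to 0.015), where 1e-05 is the smallest that 100000 permutations can give. Without fisetin 5 and control 1, the 2 libraries farthest from the median of Slc12a1, r was 0.826 for Umod, 0.897 for Cldn10, 0.862 for Kcnj1, 0.784 for Bsnd and 0.578 for Casr. Within batches r was 0.683 (Bsnd) to 0.957 (Umod) in batch 1 and 0.924 (Casr) to 0.980 (Kcnj1) in batch 2. For Cldn16 r was -0.234 (permutation p = 0.47, adjusted p = 0.47; rho = -0.189, permutation p = 0.56, adjusted p = 0.56; -0.641 in batch 1 and -0.328 in batch 2). For Cldn19 it was 0.409 (permutation p = 0.19, adjusted p = 0.23; rho = 0.517, permutation p = 0.088, adjusted p = 0.1), and it was -0.05 without those 2 libraries, so it rests on them. These values share each library's scaling. The share of all genes correlated this strongly with Slc12a1 was not computed, so these values do not set the members apart from other genes. The permutations moved all 12 libraries freely, without regard to batch or diet.

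With diet and batch removed, the residual log2 CPM was compared as a description over 12 libraries. Among the 15 pairs of Umod, Slc12a1, Kcnj1, Bsnd, Cldn10 and Casr, r was 0.787 to 0.973, highest for Umod with Slc12a1. Cldn19 with the same 6 genes gave 0.179 to 0.536, and Cldn16 gave -0.736 to -0.372. The r of Cldn16 with Slc12a1 was -0.234 before diet and batch were removed and -0.492 after. Of the 16473 other genes with unique symbols and a mean log2 CPM of at least 0, the 5 that most resembled the average of the 8 members were Aqp1 (r = 0.985), the water channel gene of the proximal tubule and thin descending limb, Ift88 (0.976), which builds cilia, the deubiquitinase gene Usp2 (0.975), the matrix metalloproteinase inhibitor gene Timp3 (0.975) and the lipid kinase gene Pip4k2c (0.969). Those most like Umod alone were Slc23a1 (r = 0.984), a vitamin C carrier gene of proximal tubule, Asb9 (0.979) and Ace (0.977), which encodes angiotensin-converting enzyme.

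**Figure D4:**
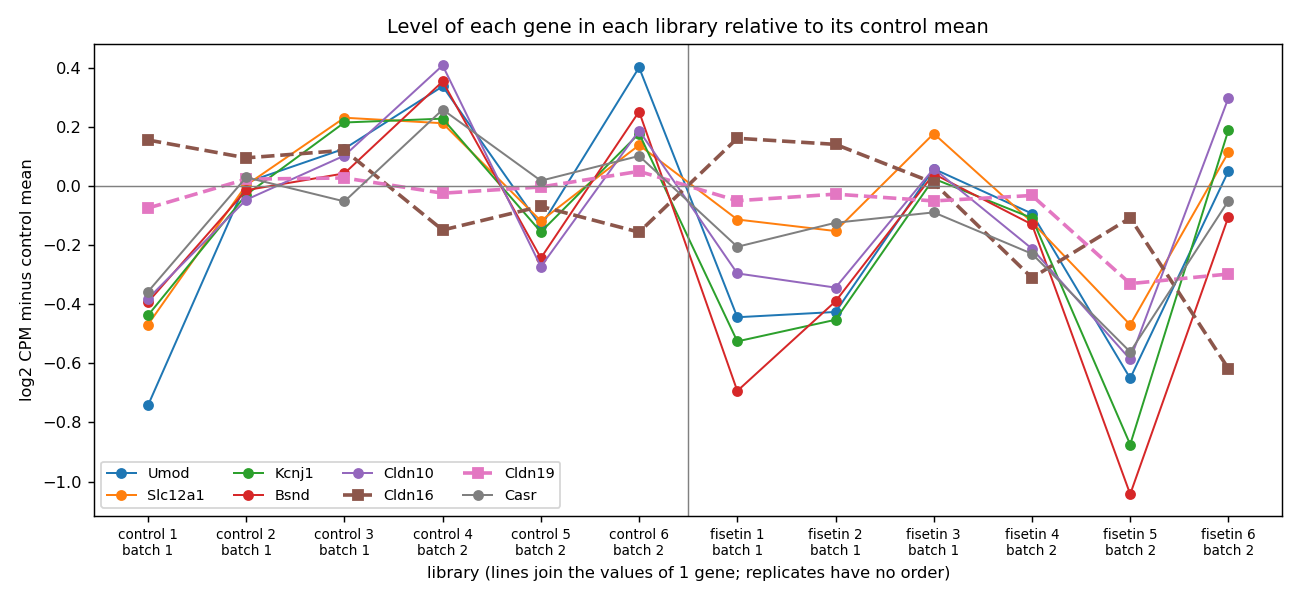
log2 CPM of each gene in each library minus its control mean; solid lines are the 6 genes that vary together and dashed lines with squares are Cldn16 and Cldn19. All 6 solid lines are lowest in fisetin 5 among fisetin libraries and in control 1 among controls, while Cldn16 is lowest in fisetin 6.

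Ratios of 2 genes within a library set the members against each other. Kcnj1 stood in a nearly fixed proportion to Slc12a1 in control libraries, with log2 ratios from -2.58 to -2.50 and a mean of -2.54 ± 0.03 (SD, n = 6). With fisetin the ratio had a mean of -2.74 ± 0.21 (n = 6) and ran from -2.95 to -2.47. In 4 of 6 fisetin libraries it lay below every control (fisetin 1, 2, 3 and 5), and fisetin 4 and 6 lay within or above the control range. The difference was -0.20, or -0.28 in batch 1 and -0.11 in batch 2 (exact permutation within batches, two-sided p = 0.04; adjusted p = 0.125 over 5 ratios, 1 of them not reported here), and did not pass. Without fisetin 5 it was -0.12, and without fisetin 6 it was -0.24 (exact permutation p = 0.01, adjusted p = 0.05, at the threshold and not under it). The ratio of Umod to Slc12a1 was 1.601 ± 0.18 in controls and 1.44 ± 0.13 with fisetin, below the control mean in 5 of 6 fisetin libraries. That difference was -0.16 (-0.12 in batch 1 and -0.19 in batch 2; exact permutation p = 0.05, adjusted p = 0.125). The smallest p that the 400 arrangements allow is 0.005.

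Both ratios of Cldn16 differed less between diets. Cldn16 against Cldn10 differed by 0.06 (0.07 in batch 1 and 0.06 in batch 2; exact permutation p = 0.81, adjusted p = 0.93) and varied most of the 4 reported ratios, from -4.15 in fisetin 6 to -2.71 in control 1. Cldn16 against Cldn19, whose products work as a pair, differed by 0.01 (0.02 and 0.0091 within batches; exact permutation p = 0.93, adjusted p = 0.93), and the sign of both Cldn16 ratios changed when single libraries were left out. The Cldn16 to Cldn19 ratio was -2.36 ± 0.07 over the 6 libraries of batch 1 and -2.63 ± 0.19 over those of batch 2.

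**Figure D5:**
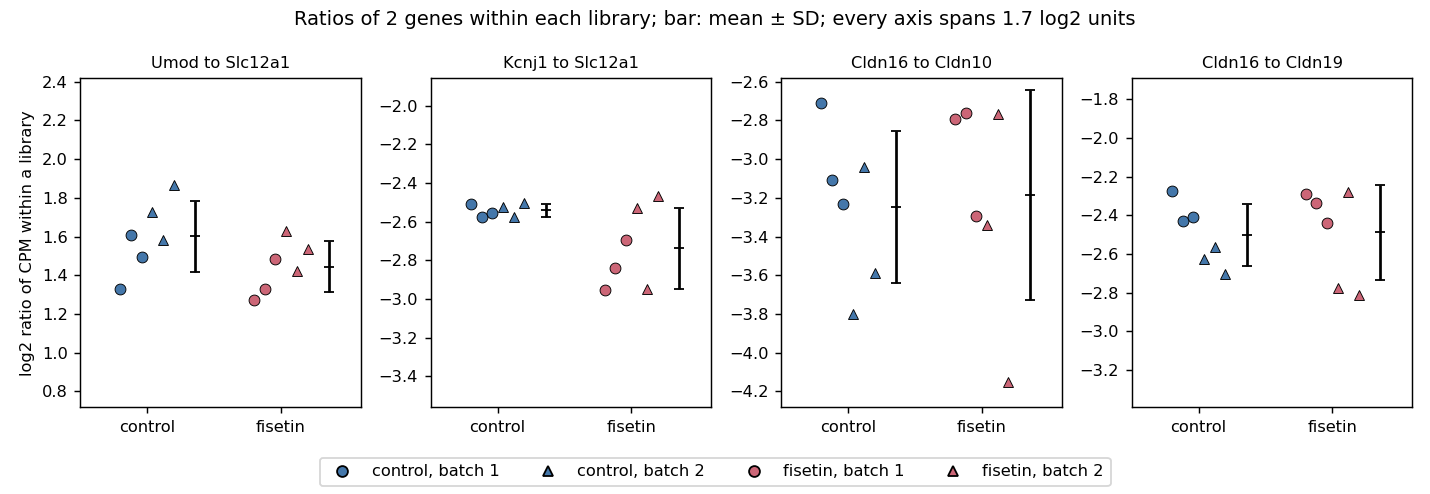
log2 ratio of 2 genes within each library by diet, with the mean ± SD and batch by shape; all 4 axes span the same range. The Kcnj1 to Slc12a1 ratio is tight in the 6 controls (-2.58 to -2.50) and wide with fisetin (-2.95 to -2.47).

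Other genes of the segment were read from lists of the pathway. Of 16 transport partners 14 were tested (Cldn14 and Cldn18 had at most 6 and 14 counts in any library). Fold changes were below 0 in 12 of the 14, against 49.8% of all genes, with a median of -0.19. By edgeR 0 passed, where 0% of 17890 genes were called. At an unadjusted p under 0.05 by edgeR, 2 partners were lower and 1 higher, against 6.34% and 8.23% of all genes. Fxyd2, a regulator of the sodium pump, stood at -0.29 ± 0.15 (SE), and Kcnma1, the large-conductance potassium channel gene, at -0.32 ± 0.09 (unadjusted p = 0.00423, adjusted p = 0.276 by edgeR). The bicarbonate carrier gene Slc4a7 was on the other side at 0.29 ± 0.10, and the anion exchanger gene Slc4a2 stood at -0.12 ± 0.05. Atp1b1, a sodium pump subunit gene, was at -0.14 ± 0.13.

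Of 17 regulators, 12 had fold changes below 0 (49.8% of all genes), the median was -0.08 and 0 passed (0% of all genes). At an unadjusted p under 0.05 by edgeR, 1 regulator was lower and 1 higher, against 6.34% and 8.23% of all genes. The kinase genes that act on NKCC2 differed little: Stk39, encoding SPAK, had 37.0 ± 2.59 CPM with the control diet and 34.9 ± 1.48 with fisetin (SD, n = 6 per diet), at a log2 fold change of -0.08 ± 0.05 (SE), and Oxsr1 was at 0.0039 ± 0.05. Wnk4, a kinase gene upstream of both, was at -0.32 ± 0.15, and Klhl3, whose product marks WNK kinases for breakdown, at -0.39 ± 0.24. Hpn, encoding hepsin, the protease that cleaves uromodulin for release, was at -0.32 ± 0.14 (adjusted p = 0.326 by edgeR). The serine protease gene Prss8 and the parathyroid hormone receptor gene Pth1r were at -0.24 ± 0.15 and -0.26 ± 0.15. Rragd, a GTPase gene of the mTOR complex 1 nutrient pathway in which variants cause a salt and magnesium wasting tubulopathy, was at 0.16 ± 0.05 (88.5 ± 5.18 CPM with the control diet and 98.9 ± 6.08 with fisetin; adjusted p = 0.286 by edgeR).

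Of 18 thick limb identity genes that are not salt carriers, 17 had fold changes below 0 (49.8% of all genes). Their median was -0.23 and 0 passed (0% of all genes). At an unadjusted p under 0.05 by edgeR, 5 were lower and 0 higher, against 6.34% and 8.23% of all genes. As with the members, genes that vary together are not separate observations. The homeobox genes Irx1 (-0.44 ± 0.17) and Pou3f3 (-0.23 ± 0.09) and the paired-box gene Pax2 (-0.23 ± 0.09) had the smallest p of those named here, followed by Sostdc1 (-0.22 ± 0.10). Ppp1r1a, a phosphatase inhibitor gene, was at -0.45 ± 0.28 and Esrrb at -0.44 ± 0.31. Egf, the growth factor gene made in the thick limb and distal tubule, varied far more than any member: from 109 CPM in fisetin 5 to 685 CPM in fisetin 6, a 6.29-fold range against 2.63-fold for Bsnd, the widest of the members, at a log2 fold change of -0.40 ± 0.46. Its residual r with Slc12a1 was 0.910 and with Cldn16 -0.751. Macula densa markers, from the sensor cells at the end of the thick limb, had 3 of 5 below 0 and 0 passing by edgeR, with a median of -0.01; Nos1 and Ptgs2 were at -0.01 ± 0.28 and 0.0020 ± 0.21, Robo2 at -0.04 ± 0.06 and Pappa2 at 0.65 ± 0.42. Avpr1a, a vasopressin receptor gene, was at -0.34 ± 0.09 (adjusted p = 0.256 by edgeR and 0.0431 by DESeq2).

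Markers of other cell types were read in the same libraries, and 0 of them passed by edgeR, which called 0% of all genes. Fold changes were below 0 in 49.8% of all genes. Immune markers had positive fold changes in 13 of 13 genes, 4 with an unadjusted p under 0.05 (8.23% of all genes were higher at that p), and their summed level was 1004 to 1678 CPM in controls and 977 to 2287 CPM with fisetin, with no marker at 0. The highest sums were in fisetin 5 (2287) and fisetin 1 (1856), which were also low in the members, and the highest control sum was in control 1 (1678). The lowest sum was in fisetin 6 (977), whose member mean was the 7th lowest of 12. That mean includes Cldn16 at its lowest (5.83 CPM) and a low Cldn19 (41.6 CPM). Slc12a1, Kcnj1 and Cldn10 lay above their control means in fisetin 6, and Umod was close to its own (2549 against 2539 CPM). Bsnd (33.5 against 36.6 CPM) and Casr (74.2 against 77.4 CPM) lay below theirs. Proximal tubule markers were below 0 in 11 of 12, 2 with an unadjusted p under 0.05 (6.34% of all genes were lower at that p), with sums of 13413 to 26680 CPM in controls and 8597 to 24542 with fisetin and the lowest values again in fisetin 5 and fisetin 1 and, among controls, control 1. Principal cell markers were below 0 in 9 of 9, with 9 at an unadjusted p under 0.05 and 2 passing by DESeq2, which called 0.954% of all genes. Their summed level was 387 to 563 CPM in controls and 184 to 397 CPM with fisetin. Thin limb markers were below 0 in 4 of 6, with 4 at an unadjusted p under 0.05 and 1 passing by DESeq2. Markers of the distal convoluted and connecting tubule were below 0 in 7 of 8 tested, with 0 lower and 1 higher at an unadjusted p under 0.05. Injured tubule markers had 6 of 12 below 0, and fibroblast markers 5 of 9, with sums of 1763 to 2677 CPM in controls and 1669 to 2507 with fisetin. Podocyte markers had 6 of 8 below 0 (1 higher at an unadjusted p under 0.05), endothelial markers 6 of 8, intercalated cell markers 6 of 9 (2 lower at an unadjusted p under 0.05) and urothelial markers 6 of 7. The part of these cell types in the member values was not tested.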

How the data were processed

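RNA of 12 kidney samples was sequenced after messenger RNA library preparation, per the labels' protocols. Tools listed in the submitters' processing notes are STAR, fastp, DESeq2 and featureCounts, with mm10 and GRCm38 as builds. Annotation release and counting settings, strand included: not given in the sources used here. Deposited by the authors were estimated counts, TPM (scaled by the authors for length and to a fixed total) and FPKM (scaled by the authors for length and depth), per the file headers. Of count values above 0, 13.91% were not whole, so counts were rounded before testing.

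Titles gave the diet, and the labels name the batch. Replicate numbers follow accession order and pair nothing. Over 16473 genes the mean squared difference of the 66 library pairs was at least 6.97 times counting noise, and none was treated as a duplicate. Genes passing filterByExpr (minimum count 10) were scaled with TMM and tested in R 4.3.3 with edgeR 4.0.16 (glmQLFit robust, glmQLFTest, two-sided, terms for batch and diet); DESeq2 1.42.0 and limma 3.58.1 were alternatives. CPM is scaled by TMM library size, and log2 CPM uses a prior count of 2. Standard errors were derived from each F statistic and its fold change. Ratios were permuted over the 400 arrangements of diet within batches. The edgeR fit was also run on simulated data with added changes larger than any member difference. That run cannot show how well differences of the size seen in the members would be found.

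The members and lists were chosen with earlier results of these data known. Besides the members, genes are named by smallest diet p within each thick limb list, up to 6, by fixed names (Egf, Esrrb, Stk39, Cldn14 and others), and by likeness; Atp1b1, Oxsr1, Cldn18 and Tmem207 were picked with their values in view. Some genes that the rule names, and 1 of the 5 ratios, are not reported here. Gene positions are from GENCODE M21 on GRCm38. The genes annotated on the opposite strand within Umod, Slc12a1, Cldn10, Cldn19 and Casr had at most 2 counts in any library.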

Additional observations from a re-analysis of the deposited data

How the results depend on the processing

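No member passed the threshold under any of the 24 alternatives run for it, and 7 of the 8 kept a negative difference in all 24. Slc12a1 was positive in 3: 0.0276 in batch 1 alone, 0.0015 on log2(TPM + 1) and 0.0019 on log2(TPM + 0.1). The median of all genes was 0.0546 on log2(TPM + 1) and 0.0758 on log2(TPM + 0.1), above the values of Slc12a1. The number of genes called over the whole table was 0 by edgeR, 154 by DESeq2, 2492 by limma-voom with quality weights, 1 in batch 1 alone and 1 without both control 1 and fisetin 5, an alternative chosen after seeing the data. Leaving out single libraries gave 0 to 70, with 70 without fisetin 6 and 1 without fisetin 4. The diet by batch interaction called 0 by edgeR and 1 by DESeq2. The Cldn16 to Cldn10 ratio difference of 0.06 was -0.0263 without both control 1 and fisetin 5 and -0.10 to 0.24 when single libraries were left out. The Cldn16 to Cldn19 difference of 0.01 was -0.0495 without both and -0.0740 to 0.0598 with single libraries left out. The Kcnj1 to Slc12a1 difference ran from -0.24 to -0.12 and that of Umod to Slc12a1 from -0.19 to -0.12 with single libraries left out, and neither fell under the threshold, which Kcnj1 to Slc12a1 reached without fisetin 6 (exact permutation p = 0.01, adjusted p = 0.05). Without control 1, 4 of the 8 members had an unadjusted p under 0.05 by edgeR, against 19.1% of all genes. Without fisetin 3 it was 2 (18.6% of all genes) and without fisetin 4 it was 1 (13.3%). It was 0 without each other library, where the share of all genes was 9.05% (without fisetin 5) to 25.7% (without fisetin 6). The cause of these changes was not tested. No paired analysis was possible because the labels give no replicate numbers. Of the 8 members, depth limits Cldn16 most, at 107 to 213 counts.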

Other observations

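Tmem207 and Cldn16 are neighbours on chromosome 16 (Tmem207 at 26503656 to 26526769, GRCm38) and differed in how they varied, a pair chosen after the values were seen. Tmem207 ran from 1.58 CPM in control 1 to 8.57 CPM in control 6, a 5.41-fold range, and Cldn16 from 5.83 to 10.01 CPM, a 1.72-fold range. Tmem207 had the lower control mean (5.51 CPM against 8.99 CPM for Cldn16), so counting noise weighs more on its range. How much of that range is counting noise was not tested. With diet and batch removed, Tmem207 had an r of 0.955 with Slc12a1 and of -0.504 with Cldn16 over 12 libraries. These are descriptions, and the libraries share their scaling.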
